A study of Mus musculus with 4 samples.

Results

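The 9 genes described here were chosen by name, by a rule that uses no measured value but was set with earlier results of these data known, because their promoter CpG islands (CGIs) are often methylated in colorectal cancer: Mgmt, Cdkn2a, Cdkn2b, Timp3, Vim, Ndrg4, Bmp3, Tfpi2 and Runx3. All 9 were found among the 21410 autosomal protein-coding genes of the mouse annotation (GENCODE M1, genome build mm9). Each was followed from 5 kb upstream of its first start to its end in 200-bp bins, which gave 1439 of the 4076373 bins compared genome-wide. A CGI is a stretch of DNA rich in CpG dinucleotides, and at most gene starts such islands carry no methyl groups on their cytosines. Dense methylation of a promoter CGI goes along with a silent gene, and in colorectal tumors this state is found at DNA repair, cell cycle and signalling genes, some of which serve as stool or blood markers. The values below give the levels of the same loci in normal mouse colon soon after birth and at weaning.

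DNA came from the colon of mice of a cross that carries an Lgr5-EGFP-CreER reporter allele on a C57 background, from which intestinal stem cells (ISCs, positive for Lgr5-EGFP) and differentiated epithelial cells (positive for EpCAM and negative for EGFP) were sorted at postnatal day 0 (P0) and postnatal day 21 (P21). The mice were offspring of reporter carriers and wild-type C57 partners, whole litters were pooled at P0 and reporter-positive pups were pooled at P21, so that every group is 1 whole-genome bisulfite sequencing library of several animals. There are no replicates: each test compares 2 libraries and not the conditions, and the pooled animals cannot be told apart. The methods give a pool of animals for the samples of each age, so the ISC and differentiated libraries of an age may share animals. An age difference seen in both populations is then not one seen in independent animals. The EGFP-negative gate holds all other EpCAM-positive cells, whichever their type. Since no selection of reporter-positive pups is stated for P0, this gate can there hold stem cells of littermates without the allele, a source that does not apply at P21. The paper also describes mosaic expression of the allele, with EGFP-negative crypts in adult mice. The gate can therefore hold stem cells of such crypts at P21 too, and the part of all these cells in the differences was not tested.

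The libraries held between 1023427645 and 1188114423 calls at CpG cytosines, with a median of 16 to 25 calls per covered CpG, and the bins of the 9 genes had a median of 64 (ISC P0), 99 (differentiated P0), 66 (ISC P21) and 83 (differentiated P21) calls. Methylation levels are methylated calls in percent of all calls, with both strands of a CpG summed, and ranges in parentheses are 95% Wilson intervals. These intervals and Fisher's exact test cover counting error only, and since PCR copies and neighboring CpGs on 1 read are not independent, both are too narrow. Within 500 bp of their starts the epithelial genes Epcam, Vil1, Cdx2, Cdh1 and Krt8 had levels of 1.99% or less in all 4 libraries. The immune genes Ptprc, Cd3e and Cd79a ranged from 72.5% to 89.2%, while the mesenchymal genes Col1a1, Col1a2 and Pdgfra ranged from 29.4% to 40.9%, from 10.9% to 18.3% and from 1.10% to 2.81%. Methylation at starts does not measure the share of other cells in a gate, and their part in the differences below was not tested.

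The promoter CGIs of these genes had low methylation in both populations and at both ages, at 6.08% or less in every library except for Mgmt in P21 differentiated cells (14.2%). Here a CGI was a region whose 500-bp windows hold at least 25 CpGs, and it was a promoter CGI when it lay within 1000 bp of an annotated protein-coding start. By this definition 8 of the 9 genes had a promoter CGI, and Tfpi2 had none. Over the calls of all 8, the level was 2.54% (2.27 to 2.84) in P0 ISCs, 2.05% (1.89 to 2.21) in P0 differentiated cells, 3.05% (2.77 to 3.36) in P21 ISCs and 2.61% (2.42 to 2.82) in P21 differentiated cells. Of their 63 promoter CGI bins, 48 were below 5% in all 4 libraries, 10 reached 10% in at least 1 library and 4 reached 20%. The median level of all 13138 promoter CGIs was 0.921%, 0.729%, 0.983% and 0.745% in the same order of libraries, and the medians of the 8 genes were 2.12%, 1.63%, 3.07% and 2.59%.

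In ISCs at P0, the promoter CGI levels ran from Cdkn2b (4.57%) over Runx3 (3.56%), Ndrg4 (3.33%), Cdkn2a (2.55%), Timp3 (1.69%), Mgmt (1.51%) and Bmp3 (1.11%) down to Vim (0.434%), and the intervals of neighbors in this order overlapped. In differentiated cells at P21 the order began with Mgmt (14.2%), whose interval (11.8 to 16.9) lay above those of all other genes. There Vim was again lowest (0.485%), with an interval that overlapped that of Bmp3 (0.609%). The Mgmt level in these cells came mainly from the bin at the upstream edge of its island (38.8%), while its 3 inner bins had 0.633%. Among all promoter CGIs, Mgmt stood at percentiles 64.3 and 90.6 in ISCs and differentiated cells at P0, and at 87.0 and 94.2 at P21. Vim stood at percentile 62.5 in P0 differentiated cells and at percentile 32.0 or lower in the other libraries, with 22.7 in P0 ISCs. In P0 ISCs, Cdkn2b (84.8), Runx3 (81.5), Ndrg4 (80.4), Cdkn2a (75.5) and Timp3 (66.9) stood above Mgmt, and Bmp3 (56.0) stood below it. In P21 differentiated cells these genes ranged from percentile 42.8 (Bmp3) to 82.97 (Runx3).

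**Figure D1:**
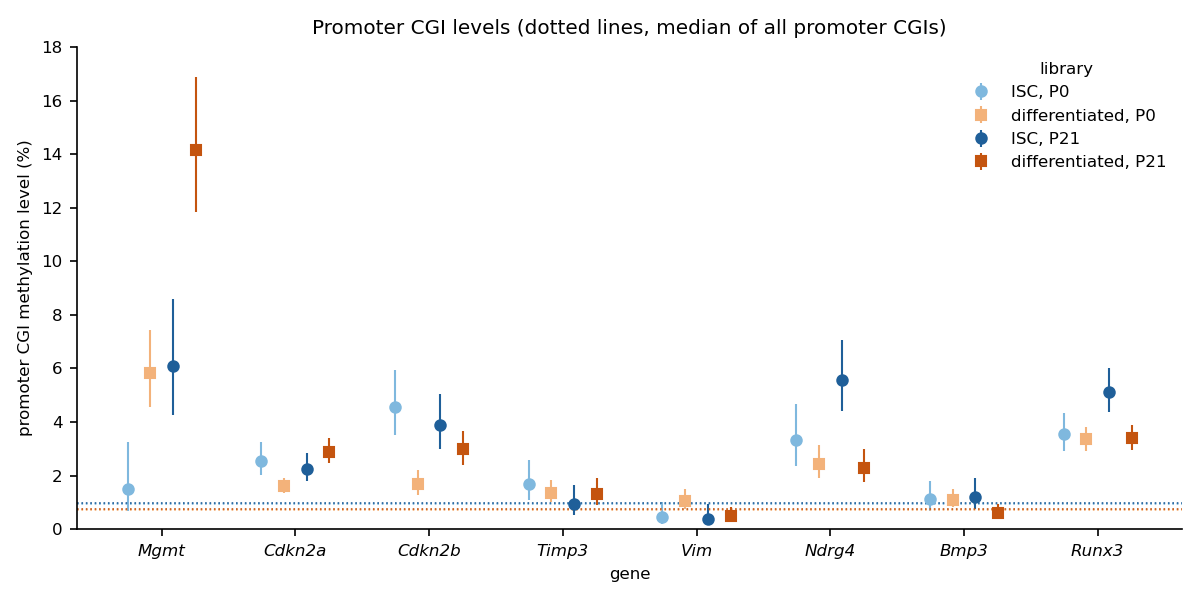
Methylation level (%) of the promoter CGI of 8 genes in 4 libraries, with points for the level over all calls and bars for 95% Wilson intervals; dotted lines give the median of all 13138 promoter CGIs. All levels lie at or below 6.08% except that of Mgmt in P21 differentiated cells (14.2%).

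Calls were made for elements of each gene as well as for bins. The elements were the promoter CGI, its shores (2 kb on either side), other CGIs, the remaining gene body, the last exon and the remaining upstream 5 kb, and an element was called when Fisher's exact test, adjusted by Benjamini-Hochberg over the elements of all genes, gave p below 0.05 and the levels lay over 5 points apart. None of the 8 promoter CGIs was called from P0 to P21 in ISCs, where 3.27% of all promoter CGIs were called. In differentiated cells 1 was called with age (background 2.36%), none was called between the populations at P0 (background 2.65%) and 1 was called at P21 (background 2.04%). Both calls were Mgmt, and as means of bin levels both differences lay under 5 points. Of 45 elements, the promoter CGIs included, 9 were called with age in ISCs (background 11.9%), 9 higher (background 5.93%) and 0 lower (background 6.01%) at P21. In differentiated cells 12 were called (background 12.7%), 11 higher (background 5.64%) and 1 lower (background 7.04%). Between the populations 4 elements were called at P0 (background 9.98%), 0 higher (background 4.03%) and 4 lower (background 5.95%) in differentiated cells, and 7 at P21 (background 8.39%), 3 higher (background 2.77%) and 4 lower (background 5.63%).

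The level of an element over its calls depends on how the calls fall on its bins, which differed between libraries. The difference was therefore taken also between the means of the bin levels, without a test, and is called the bin mean difference below. It was over 5 points in the same direction for 11 of the 32 element calls, at or under 5 points for 16 and of opposite sign for 5. In ISCs 6 of the 9 gains with age were over 5 points and 3 were not. In differentiated cells 4 of the 12 calls were over 5 points, 7 were not and 1 had the opposite sign. Between the populations 1 of the 11 calls was over 5 points, at the last exon of Cdkn2b.

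**Figure D2:**
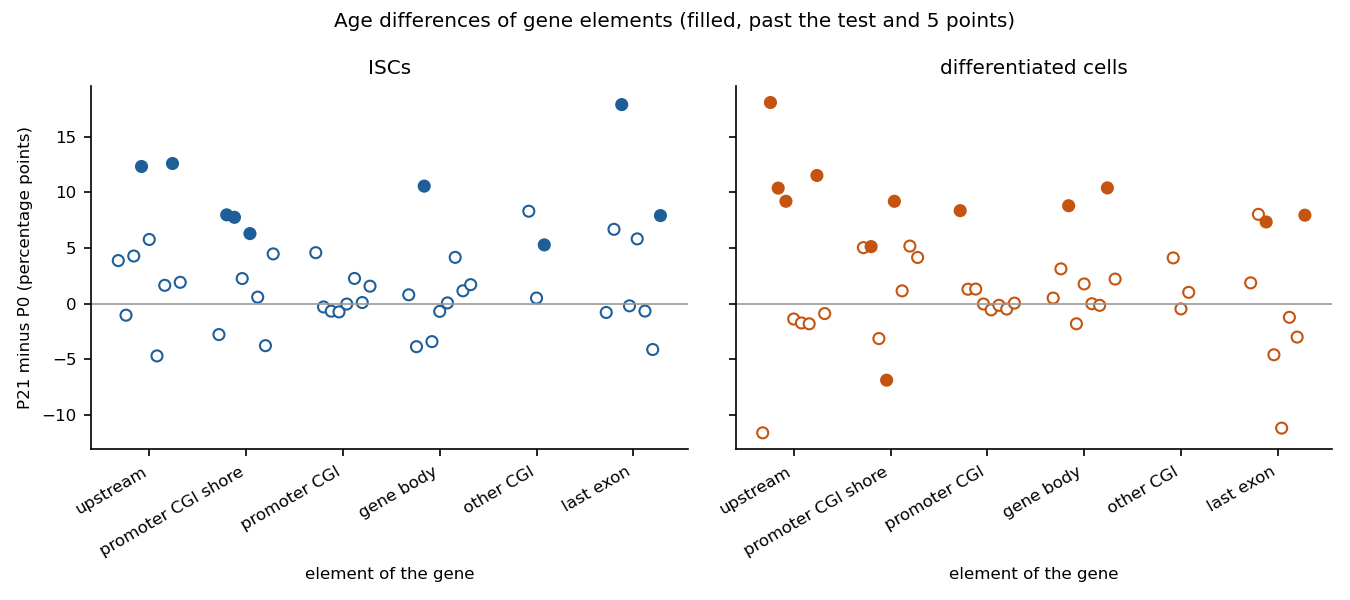
Difference in methylation (P21 minus P0, percentage points) of each element of the 9 genes, by element type, in ISCs (left) and in differentiated cells (right). Levels are over all calls of an element. Filled points were called by Fisher's exact test and lie over 5 points from 0; 9 ISC points are filled, all above 0, and of the 12 filled points of differentiated cells 1 lies below 0.

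Bins were called at the same adjusted p when their levels lay over 15 points apart. The level of a bin likewise depends on how its calls fall on its CpGs, and no mean over CpGs was taken. From P0 to P21, 27 of the 1439 bins of these genes rose in ISCs (1.88%, background 1.07%) and 16 fell (1.11%, background 1.48%). In differentiated cells 25 rose (1.74%, background 0.992%) and 17 fell (1.18%, background 1.86%). The median difference over the bins of the 9 genes was 0.553 points in ISCs and 0.175 points in differentiated cells, beside 0 and -0.0744 points over all bins. Differences between the populations were fewer. At P0, 3 bins were higher (0.208%, background 0.288%) and 4 lower (0.278%, background 0.22%) in differentiated cells, and at P21, 3 were higher (0.208%, background 0.0711%) and 2 lower (0.139%, background 0.111%). Of the 74 bins called with age in either population, 11 were called in both, 5 as gains and 6 as losses, and none was called in opposite directions. The share of bins called in both populations was not taken over all bins, so these counts have no background beside them. In 15 of the 74, of which each was called in 1 population only, the differences of the populations had opposite signs. The shares of bins that rose with age were above the background in both populations and the shares that fell were below it, with no test of the list as a whole. Counts of single genes below stand beside the same backgrounds and were not tested per gene. Of 88 bins in any CGI of the 9 genes, each population had 3 called with age (3.41%, background over all CGI bins 1.74% in ISCs and 1.51% in differentiated cells), and none was called between the populations (background 0.446% at P0 and 0.273% at P21). With the calls of every bin thinned to those of its lowest library, the bins called from P0 to P21 numbered 26 in ISCs and 17 in the differentiated libraries, and 50 of the 97 bin calls of the 4 comparisons were lost. The named calls that were lost in this way, those of elements included, are given below as lost at equal depth.

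**Figure D3:**
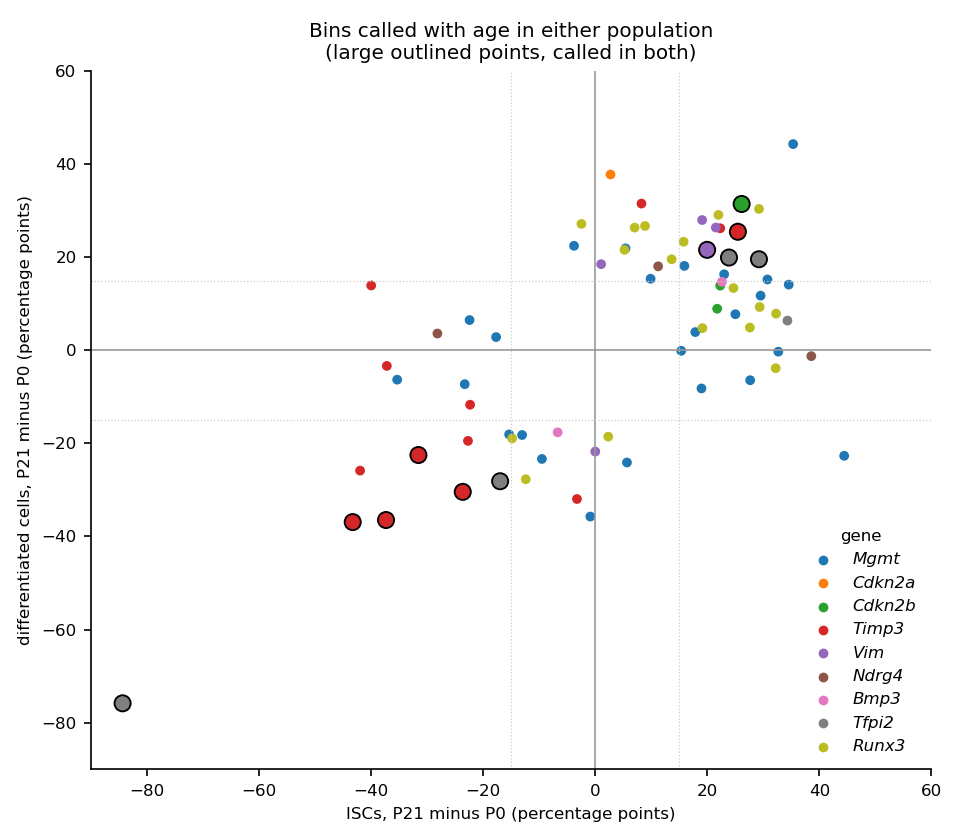
Difference with age (P21 minus P0, percentage points) in ISCs (x) and in differentiated cells (y) for the 74 bins called in at least 1 population, colored by gene, with dotted lines at 15 points. The 11 large outlined points were called in both, and they belong to Timp3, Tfpi2, Vim and Cdkn2b.

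The Cdkn2a and Cdkn2b genes lie next to each other on chromosome 4 (chr4:88920377-88940557 and chr4:88952198-88956941, both on the minus strand) and encode inhibitors of cyclin-dependent kinases. Cdkn2a has 2 starts, of which the first belongs to the exon used by the Arf product and the second to that used by Ink4a. Over its CpGs, the CGI at the first start (172 CpGs) had levels of 3.08% in P0 ISCs, 1.93% in P0 differentiated cells, 2.41% in P21 ISCs and 3.27% in P21 differentiated cells. The CGI at the second start (35 CpGs) had 0.377% (0.0666 to 2.11), 1.20% (0.655 to 2.20), 4.20% (2.67 to 6.53) and 3.25% (2.11 to 4.96). At this smaller island the intervals of the P0 and P21 ISC libraries did not overlap, yet no bin there passed 15 points and the difference of the whole promoter CGI, both islands together, was -0.301 points in ISCs and 1.29 points in differentiated cells. A further CGI between the exons stayed between 2.01% and 2.55%. Methylation of Cdkn2a was low well outside of its islands too. Its gene body had 34.7%, 26.4%, 30.9% and 29.5%, where the median gene body had between 81.4% and 82.0%, and the difference of -8.32 points between differentiated cells and ISCs at P0 was called over the calls (Fisher's exact test, adjusted p = 9.52e-12), while the bin mean difference had the opposite sign (4.73 points). Its shores rose from 16.0% to 24.0% in ISCs and had 16.5% and 21.6% in differentiated cells, with bin mean differences of 5.35 and 3.12 points. The remaining upstream sequence, 1 bin of 3 CpGs, rose in differentiated cells from 14% to 32.1% (Fisher's exact test, adjusted p = 0.0281), a call that was lost at equal depth, and had 16.7% and 15.6% in ISCs on 24 and 32 calls. Its last exon, with 1 compared bin of 28 to 37 calls, had 0%, 2.70%, 6.67% and 10.7%. Of its 65 bins only 1 was called, at chr4:88938601-88938800 in intron 1, which rose in differentiated cells from 25.9% to 63.8% (Fisher's exact test, adjusted p = 0.00322) and had 35.6% and 38.2% in ISCs.

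The promoter CGI of Cdkn2b had 4.57% in P0 ISCs, 1.67% in P0 differentiated cells, 3.89% in P21 ISCs and 2.97% in P21 differentiated cells. Within 500 bp of the start none of its bins exceeded 1.85% in any library, and the methylated calls came from the edge 641 to 841 bp into the gene, where the outermost bin had 31.0%, 17.3%, 20.7% and 26.3%. The 3' end of Cdkn2b gained methylation, and the called bins of its last exon lie in a CGI by the definition used here. In its last exon the level was 22.8% in P0 ISCs, 21.1% in P0 differentiated cells, 40.6% in P21 ISCs and 28.5% in P21 differentiated cells, and both gains, of 17.9 points in ISCs and 7.33 points in differentiated cells, were called (Fisher's exact test, adjusted p = 1.82e-07 and 0.00683). At P21 the difference of -12.2 points between differentiated cells and ISCs was called as well (Fisher's exact test, adjusted p = 0.000273). The bin mean differences were 18.9 and 12.5 points with age and -7.33 points between the populations. The end-most bin (chr4:88952601-88952800, exon 2) rose from 66.3% to 92.5% in ISCs (Fisher's exact test, adjusted p = 0.000633) and from 54.1% to 85.6% in differentiated cells (Fisher's exact test, adjusted p = 1.19e-05), so that both P21 libraries lay above both P0 libraries. The next bin rose from 25.4% to 47.2% in ISCs and had 31.2% and 40.2% in differentiated cells. In intron 1 a bin rose in ISCs from 7.69% to 30% (lost at equal depth), and the gene body outside the island and the last exon, which includes this bin, rose in both populations, from 11.4% to 22% and from 5.77% to 14.6%. The shores, taken on either side of the island, rose in ISCs (61.0% to 68.7%, not called under either of 2 stricter definitions of a CGI). In differentiated cells the shores had 66.6% and 63.5%, which was not called. The remaining upstream bins rose in differentiated cells (42.0% to 52.3%) and had 46.0% and 50.2% in ISCs, not called.

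Mgmt, on chr7:144086294-144319870 (plus strand), encodes the enzyme that removes alkyl groups from guanine in DNA. It is the longest of the 9 genes (233577 bp) and holds 669 of the 1439 bins, so it weighs most in the counts above. Its promoter CGI is short, with 32 CpGs in 643 bp, and was not found under either of the stricter definitions. The level over the island was 1.51% (0.693 to 3.25) in P0 ISCs, 5.82% (4.54 to 7.44) in P0 differentiated cells, 6.08% (4.27 to 8.60) in P21 ISCs and 14.2% (11.8 to 16.9) in P21 differentiated cells. The gain of 8.34 points in differentiated cells (Fisher's exact test, adjusted p = 1.21e-07) and their excess of 8.09 points over ISCs at P21 (Fisher's exact test, adjusted p = 0.000206) were called over the calls. The bin mean differences were 4.62 and 2.96 points, both under the limit of 5 points. With only the CpGs that had 10 or more calls in every library the levels were 0%, 1.07%, 2.32% and 2.80%. This filter kept 18 of the 32 CpGs. It left out the first and the second CpG of the upstream edge, which had 7 calls each in P0 ISCs and in which much of the difference lay. The methylated calls lay at the upstream edge, which held 266 of 1013 calls in P0 differentiated cells and 260 of 734 at P21, but 66 of 398 and 100 of 477 in ISCs. The outermost bin, 394 bp before the start, had 9.09%, 20.7%, 25% and 38.8% in the same order, and it rose in differentiated cells (Fisher's exact test, adjusted p = 0.000565, lost at equal depth). Between the populations this bin was not called at P21 (13.8 points, Fisher's exact test, adjusted p = 0.381). The 3 bins inside the island held 26 CpGs and had 0%, 0.535%, 1.06% and 0.633%, and the 0 of 332 calls in P0 ISCs has an upper bound of 1.14%. The sequences of the edge and of the adjoining core bin, plus strand, 5' to 3', are shown with CpGs in capitals because the level changes between them.
Mgmt island edge, chr7:144085801-144086000: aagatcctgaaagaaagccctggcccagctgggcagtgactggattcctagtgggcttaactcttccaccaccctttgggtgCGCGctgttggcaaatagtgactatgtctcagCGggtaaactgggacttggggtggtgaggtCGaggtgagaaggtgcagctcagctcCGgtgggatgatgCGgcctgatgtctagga
Mgmt island core, chr7:144086001-144086200: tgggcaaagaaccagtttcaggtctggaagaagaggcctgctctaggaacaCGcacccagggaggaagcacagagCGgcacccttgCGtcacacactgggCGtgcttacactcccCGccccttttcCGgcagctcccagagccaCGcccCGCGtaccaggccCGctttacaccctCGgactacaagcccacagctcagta
In the edge sequence the first CpG had 57.1%, 57.1%, 75% and 90.6%, and the second, 2 bases further, had 28.6%, 59.5%, 53.3% and 82.7%. The 3 CpGs nearest to the island core were at 10.5% or less in every library. The difference within the edge bin thus lay in its outer CpGs, which had 7 to 53 calls each. In differentiated cells the first and the second CpG had 42 calls each at P0 and 53 and 52 at P21. The bin had 266 and 260 calls, so its rise is in part a shift of calls onto these methylated CpGs. In the core sequence, 9 of 11 CpGs had no methylated call in any library.

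The shores of Mgmt were methylated at 84.3% in P0 ISCs, 82.5% in P0 differentiated cells, 81.5% in P21 ISCs and 87.5% in P21 differentiated cells. The difference of 6 points between the populations at P21 was called (Fisher's exact test, adjusted p = 0.0173), with a bin mean difference of 3.78 points. Of the shore bins, chr7:144086801-144087000 had 81.6%, 81.6%, 59.1% and 88.1%, and its fall in ISCs and its excess of 29.0 points in P21 differentiated cells were called but lost at equal depth. The adjoining bin, chr7:144086601-144086800, had 59.5%, 90%, 50% and 66.7%, and its fall in differentiated cells was lost at equal depth too. The gene body was methylated at 82.1%, 82.3%, 82.9% and 82.8%. Genome-wide, 1.07% of bins rose and 1.48% fell in ISCs, and 0.992% rose and 1.86% fell in differentiated cells. Of the 669 bins of the whole Mgmt locus, island and shores included, 11 rose and 4 fell in ISCs and 5 rose and 5 fell in differentiated cells. Apart from the island edge and the shore they were spread singly over introns 1 to 3 and around exon 4, and none of them was called in both populations. The gains in ISCs included a bin in intron 2 at chr7:144274201-144274400, from 46.7% to 81.2% (Fisher's exact test, adjusted p = 2.62e-05), which at P21 was lower in differentiated cells (55.7%, lost at equal depth). Another bin in intron 3, at chr7:144279801-144280000, rose in differentiated cells from 46.3% to 90.7% (Fisher's exact test, adjusted p = 0.000994, lost at equal depth) and had 46.2% and 81.5% in ISCs on 26 and 27 calls. Intron 3 also held the bin that differed between the populations at both ages, chr7:144294601-144294800. At P0 it had 52.4% in ISCs and 84.2% in differentiated cells (Fisher's exact test, adjusted p = 4.42e-14), and at P21 it had 45.6% and 72.5% (Fisher's exact test, adjusted p = 2.31e-07). Its sequence is shown on the plus strand with the 5 CpGs in capitals.
Mgmt intron bin, chr7:144294601-144294800: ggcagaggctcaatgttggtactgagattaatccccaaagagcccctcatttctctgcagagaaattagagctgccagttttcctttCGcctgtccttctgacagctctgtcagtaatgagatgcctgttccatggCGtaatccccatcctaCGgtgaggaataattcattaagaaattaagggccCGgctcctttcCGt
The outer CpGs of this bin were at 87.0% or more in all libraries. The second and the third CpG had 33.0% and 30.4% in P0 ISCs, 77.6% and 73.5% in P0 differentiated cells, 26.8% and 28.4% in P21 ISCs, and 56.4% and 56.6% in P21 differentiated cells, on 83 to 106 calls each. By single CpGs, the difference between the populations therefore lay in these neighbors. The outer CpGs had 24 to 48 calls each in P0 ISCs and 56 to 60 in P0 differentiated cells. At P21 they had 21 to 31 and 44 to 58. The ISC levels of the bin thus rest more on the second and the third CpG, which widens the differences of the whole bin.

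Timp3 and Tfpi2 encode secreted inhibitors, the former of metalloproteinases of the extracellular matrix and the latter a Kunitz-type inhibitor of serine proteases. Timp3 spans chr10:85763117-85812251 on the plus strand and lies inside Syn3, which is transcribed from the opposite strand, so its introns belong to both. Its promoter CGI had 1.69%, 1.35%, 0.941% and 1.32% over its 6 bins, and it was not called in any comparison. A second start, at position 85765599, is outside a CGI and had 7.10%, 20.3%, 15.4% and 8.19% within 500 bp, on only 11 CpGs. Losses stood at the other end. From P0 to P21, 9 of its 136 bins fell in ISCs and 5 in differentiated cells, beside 1.48% and 1.86% of all bins. Gains were called in 1 bin in ISCs and 3 in differentiated cells, beside 1.07% and 0.992% of all bins. Among them, chr10:85788201-85788400 in intron 1 rose in differentiated cells from 54.9% to 86.4% (Fisher's exact test, adjusted p = 0.0053). It had 76.5% and 84.7% in ISCs. Of the falling Timp3 bins, 8 and 5 lay in a stretch at the 3' end, chr10:85800601-85808000, where 5 of the 8 and 2 of the 5 were lost at equal depth. Over the 22 bins of that stretch the level was 65.3% (63.1 to 67.4) and 61.8% (60 to 63.6) in the P0 libraries of ISCs and differentiated cells, and 50.9% (48.6 to 53.2) and 48.9% (46.9 to 50.9) in those of P21. Both P21 libraries were below both P0 libraries, by -14.4 points in ISCs and -12.9 points in differentiated cells. The bin at chr10:85807201-85807400, over exon 4, fell from 82.4% to 39.1% in ISCs (lost at equal depth) and from 90.1% to 53.2% in differentiated cells. In intron 4, the bin at chr10:85807601-85807800 fell from 87.4% to 50% (Fisher's exact test, adjusted p = 9.33e-07) and from 86.0% to 49.5% (Fisher's exact test, adjusted p = 1.84e-06). Its sequence on the plus strand is shown because the loss was unequal over its 4 CpGs, in capitals.
Timp3 intron 4 bin, chr10:85807601-85807800: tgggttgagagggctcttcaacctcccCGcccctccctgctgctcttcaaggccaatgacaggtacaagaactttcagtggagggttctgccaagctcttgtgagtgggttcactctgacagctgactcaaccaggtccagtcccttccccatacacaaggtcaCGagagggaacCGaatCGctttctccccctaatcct
The first CpG had 56.2% and 59.3% at P0 and 0% and 4.35% at P21 in ISCs and differentiated cells. The fourth had 95.5% and 100% at P0 and 75.6% and 78.3% at P21. The whole gene body of Timp3 moved by -3.41 and -1.81 points only, and its last exon stayed at 90.2% to 94.8%. In the opposite direction, the upstream element of Timp3 rose from 35% to 47.3% in ISCs and had 29.5% and 38.7% in differentiated cells, with bin mean differences of 7.52 and 4.91 points. At P21 its level in differentiated cells minus that in ISCs was -8.56 points (Fisher's exact test, adjusted p = 0.00205), with a bin mean difference of -4.22 points. A pair of bins there, chr10:85758401-85758800, together had 39.6% and 35% at P0 and 63.6% and 61.5% at P21. Its shores had 54.5% and 56.8% in ISCs and 59.4% and 52.5% in differentiated cells, where the call was lost at equal depth and the bin mean difference was -3.96 points.

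Tfpi2 (chr6:3912594-3918375, minus strand), the gene of the 9 without a promoter CGI, was partly methylated at its start and gained methylation there. Within 500 bp of the start, 33 CpGs had 28.5% (25.2 to 32.2) in P0 ISCs, 28.5% (26.5 to 30.7) in P0 differentiated cells, 54.8% (51.1 to 58.6) in P21 ISCs and 47.2% (44.4 to 50.1) in P21 differentiated cells. The differences of 26.3 points in ISCs and 18.7 points in differentiated cells stood at percentiles 99.8 and 99.3 of 20640 starts. Among the 7458 starts without a promoter CGI they stood at percentiles 99.6 and 98.4. Compared with those starts the level itself was low, at percentiles 15.8 and 16.1 at P0 and at percentiles 28.1 and 24.5 at P21. Of the 5 bins around the start, 3 rose in ISCs and 2 in differentiated cells. The bin 275 bp into the gene rose from 27.3% to 51.2% and from 31.6% to 51.6%, and the bin 75 bp into the gene from 28.6% to 57.8% and from 31.2% to 50.8% (the latter lost at equal depth). Both P21 libraries exceeded both P0 libraries in these bins. The bin 125 bp upstream had 8.54% in P0 ISCs, 17.8% in P0 differentiated cells, 42.9% in P21 ISCs (Fisher's exact test, adjusted p = 2.12e-10 for the gain) and 24.3% in P21 differentiated cells. It is shown on the minus strand with CpGs in capitals, since it is the bin of the 9 genes in which the age effect differed between the populations.
Tfpi2 upstream bin, chr6:3918401-3918600: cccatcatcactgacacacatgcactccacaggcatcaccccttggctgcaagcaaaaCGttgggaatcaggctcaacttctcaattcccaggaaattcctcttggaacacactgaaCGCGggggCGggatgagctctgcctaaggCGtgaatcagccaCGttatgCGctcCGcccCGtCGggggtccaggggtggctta
The fifth of its 10 CpGs differed most in ISCs, with 11.1% at P0 and 75% at P21, and had 41.1% and 41.9% in differentiated cells. The first and the ninth were at 16.7% or less in all libraries, each CpG resting on 12 to 58 calls. The gain of 34.3 points in ISCs against 6.41 in differentiated cells passed a test of the difference between the age effects (a two-sided Wald chi-square test on the log odds with 0.5 added to each count, adjusted p = 0.00668). This test was passed by 1 of the 1439 bins and by 0.150% of all bins.

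Inside the gene, Tfpi2 also held the largest loss among the called bins of the 9 genes. The bin at chr6:3914001-3914200 in intron 3 fell from 94.6% to 10.2% in ISCs (Fisher's exact test, adjusted p = 3.06e-13) and from 75.9% to 0% in differentiated cells (Fisher's exact test, adjusted p = 0.000295), on 37, 49, 29 and 13 calls. The adjoining bin over exon 4 fell from 17.0% to 0% and from 28.1% to 0% (both lost at equal depth). Together these 2 bins had 48.9% and 50.8% at P0 and 4.50% (1.94 to 10.1) and 0% at P21, where 0 of 54 calls has an upper bound of 6.64%. Over the calls of the upstream element of Tfpi2 the level was 64.2% and 76.7% in ISCs and 55.9% and 67.4% in differentiated cells. These gains were called, but the bin mean differences were 1.38 and 3.98 points. The same held between the populations, where differences of -8.29 and -9.36 points at P0 and P21 stood beside bin mean differences of -2.32 and 0.279 points. The gene body had 47.8% and 48.9% in ISCs and 43.5% and 53.8% in differentiated cells, a called difference whose bin mean difference had the opposite sign (-1.59 points).

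**Figure D4:**
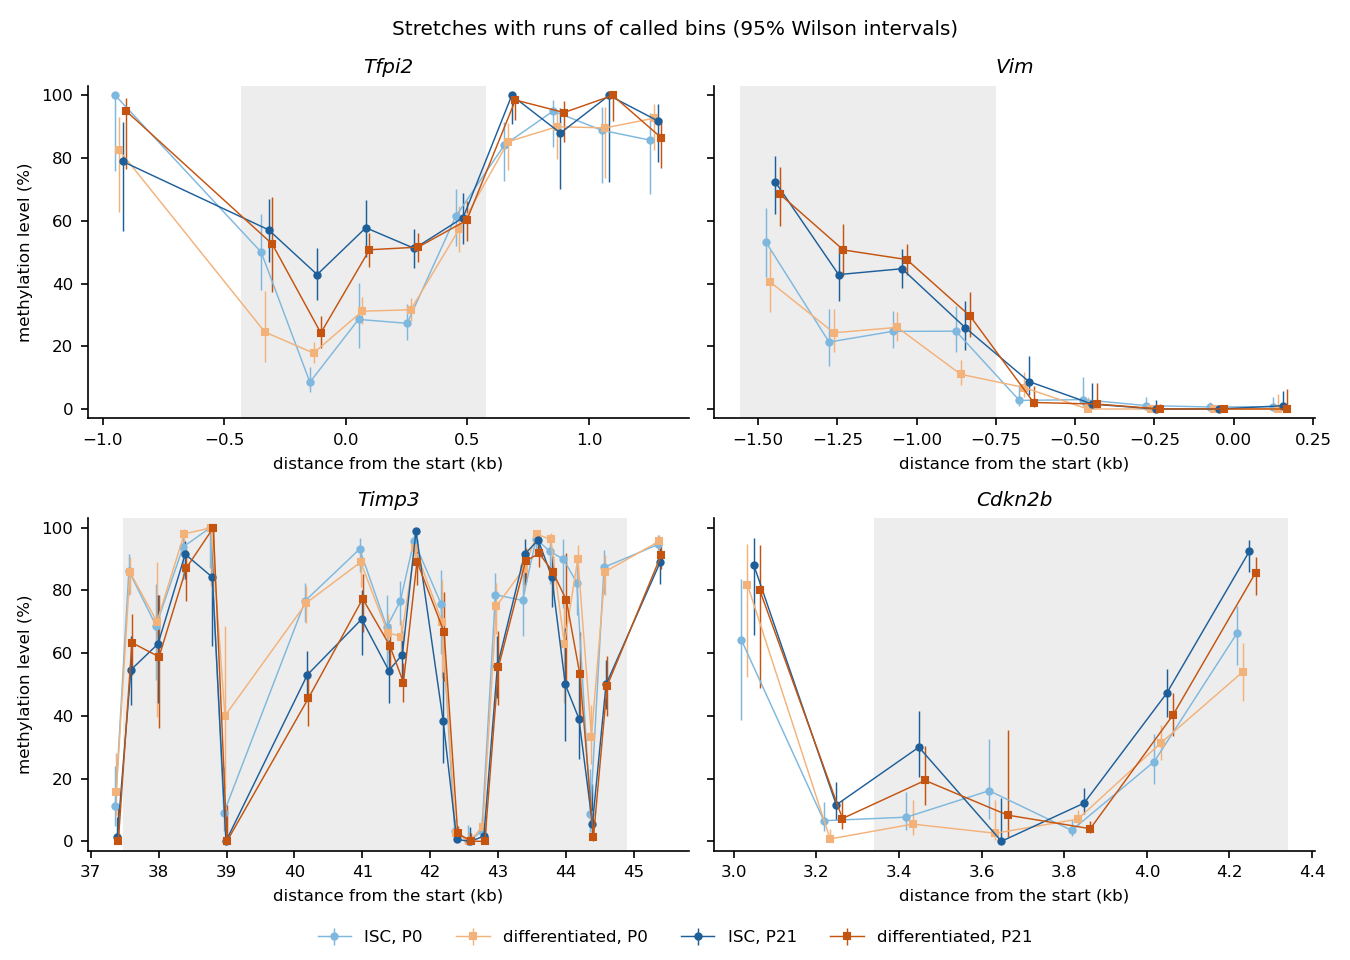
Methylation level (%) of 200-bp bins against the distance from the start (kb) for Tfpi2, Vim, Timp3 and Cdkn2b in 4 libraries; bars are 95% Wilson intervals, gray marks the stretches described in the text, and libraries are set slightly apart sideways. The marked stretches were picked after their values were seen, and that of Vim holds 4 of the 13 bins of its shores. From P0 to P21 the level is higher in 4 (ISCs) and 5 (differentiated cells) of the 5 marked bins at the Tfpi2 start. In each population it is higher in the 4 marked Vim bins and in 4 of the 5 marked bins of the Cdkn2b end, and it is lower at several Timp3 bins.

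Bmp3 encodes a member of the bone morphogenetic protein family that opposes its relatives, and Runx3 a Runt-domain transcription factor linked to transforming growth factor signalling and to T cell development. Among these genes, Bmp3 (chr5:99283458-99309979, plus strand) had one of the least methylated promoter CGIs, with 1.11%, 1.10%, 1.20% and 0.609% over 7 bins. Among all promoter CGIs it stood at percentiles 56.0, 64.0, 55.5 and 42.8 in the same libraries. The gradient at the upstream edge was steep. The bin 158 bp before the start had 25%, 16.4%, 15.7% and 18.3%, and the bin 200 bp further upstream had 81.1%, 76.2%, 82.6% and 87.2%. Of its 79 bins, 1 rose in ISCs, in intron 1 (67.7% to 90.3%), and 1 fell in differentiated cells, also in intron 1 (94.9% to 77.3%, lost at equal depth). Its shores had 60.4% and 56.7% in ISCs and 60% and 65.1% in differentiated cells, and at P21 they were 8.47 points higher in differentiated cells, with a bin mean difference of 2.72 points and no call with CGIs of 35 CpGs per 500 bp.

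Runx3 (chr4:134676567-134733905, plus strand) has 2 starts that differed in methylation throughout. The first start, which has no CGI, was methylated at 88.5% (85.0 to 91.3) in P0 ISCs, 82.9% (80.3 to 85.3) in P0 differentiated cells, 91.3% (88.5 to 93.5) in P21 ISCs and 89.2% (86.7 to 91.3) in P21 differentiated cells. The second start, at position 134708411, lies in a CGI of 215 CpGs with 3.56%, 3.35%, 5.12% and 3.39% over its bins. Non-coding genes overlap the locus on the opposite strand (Gm16224 in the gene and Gm16225 in front of it). Methylation of the island was higher on its upstream side, where the 4 bins of chr4:134707201-134708000 ranged from 4.69% to 34.7%, while the 4 bins from 111 bp before to 489 bp after the start were at 3.83% or less. The stretch ahead of the island gained with age. Between the starts, the 12 bins of chr4:134703201-134706200 had 31.7% (28.6 to 34.9) and 31.4% (29.1 to 33.8) at P0 and 41.7% (38.6 to 44.8) and 45.7% (42.9 to 48.5) at P21 in ISCs and differentiated cells. Of these bins 1 rose in ISCs, at chr4:134706001-134706200 (11.7% to 36.4%, Fisher's exact test, adjusted p = 4.09e-05), and 4 rose in differentiated cells, such as chr4:134703401-134703600 (51.0% to 80.1%, Fisher's exact test, adjusted p = 5.35e-07). The other 3 of these 4 were lost at equal depth. At the other end of the gene the last exon had 33.8% and 41.7% in ISCs and 27% and 35% in differentiated cells. These gains were called over the calls, and the bin mean differences were 3.81 and 3.93 points. The differences between differentiated cells and ISCs, of -6.76 points at P0 and -6.72 points at P21, were called too but turned to 2.26 and 2.38 points between bin means. The CGI at that end had 13.6% and 14.6% at P0 and 20.6% and 21.1% at P21, and its edge bin in intron 5 rose in ISCs from 35.6% to 67.9% (Fisher's exact test, adjusted p = 0.00665). Over the CGI bins of Runx3 outside its promoter and last exon the ISC difference of 5.27 points was called (Fisher's exact test, adjusted p = 4.54e-09), with a bin mean difference of 6.82 points and no call with CGIs defined by sequence. In all, 6 bins of Runx3 rose and none fell in ISCs, and 8 rose and 3 fell in differentiated cells, of 244 compared. Over all bins 1.07% rose and 1.48% fell in ISCs, and 0.992% rose and 1.86% fell in differentiated cells.

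Vim, which encodes the intermediate filament protein of mesenchymal cells, and Ndrg4, a gene of the N-myc downstream-regulated family known from nervous tissue and heart, are used with Bmp3 as methylation markers in stool DNA. Vim (chr2:13495554-13504453, plus strand) had the lowest promoter CGI levels among the genes described here, at 0.434%, 1.05%, 0.394% and 0.485%. The unmethylated region reached upstream past the island and the start, where the bins 54 and 254 bp before the start had at most 1.08%. Further upstream, in the shore, bins rose with age. The shores as a whole had 9.06% and 15.3% in ISCs and 8.81% and 18% in differentiated cells, and these called gains had bin mean differences of 4.42 and 2.90 points. The 4 adjoining bins of chr2:13494001-13494800 had 28.7% (24.8 to 32.9) and 23.0% (20.2 to 26.0) at P0 and 44.7% (40.7 to 48.8) and 47.1% (43.6 to 50.7) at P21, with all 4 called in differentiated cells, 2 of them lost at equal depth, and 1 in ISCs. The shore bin called in both populations is shown with the bin just before the start, both on the plus strand with CpGs in capitals, because the methylated shore gives way to an unmethylated start between them.
Vim shore bin, chr2:13494401-13494600: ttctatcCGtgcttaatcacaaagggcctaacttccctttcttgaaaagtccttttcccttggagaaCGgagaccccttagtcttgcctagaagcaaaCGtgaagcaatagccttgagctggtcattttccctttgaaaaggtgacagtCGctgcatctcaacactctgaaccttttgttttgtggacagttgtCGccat
Vim bin before the start, chr2:13495201-13495400: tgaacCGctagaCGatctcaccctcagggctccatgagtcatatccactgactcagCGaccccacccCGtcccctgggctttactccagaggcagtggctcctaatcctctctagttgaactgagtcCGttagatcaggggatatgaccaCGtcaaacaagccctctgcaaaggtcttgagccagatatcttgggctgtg
The shore bin rose from 24.8% to 44.7% in ISCs (Fisher's exact test, adjusted p = 0.00157) and from 26.0% to 47.6% in differentiated cells (Fisher's exact test, adjusted p = 3.71e-07). Its second CpG had 42.2% and 37.9% at P0 and 67.9% and 70.2% at P21, and the last had 0% and 20% at P0 and 37.0% and 45.2% at P21. In the bin before the start, 5 of 6 CpGs had no methylated call in any library, and the sixth had 5% in P0 ISCs and 0% in the other libraries. In the downstream shore, 1 bin fell in differentiated cells (21.7% to 0%, lost at equal depth), and it was at 0% in both ISC libraries. The gene body stayed at 84.2% to 86.8%.

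Ndrg4 (chr8:98200880-98239019, plus strand) has 3 starts. The first and the second share a CGI of 130 CpGs, with 3.33%, 2.44%, 5.58% and 2.29% over its bins. In the 5 bins from 285 bp before to 515 bp after the second start no level exceeded 2.63%. The downstream edge bin had 31.4%, 28.6%, 54.5% and 40.3% on 70 to 119 calls. The third start has no CGI, and the 8 bins around it were unmethylated all the same, with 2.28%, 1.52%, 2.24% and 2.46%. Age differences lay at the first start, on the edge of the island. The 2 bins there had 12.1% (8.08 to 17.8) and 14.6% (11.1 to 19.0) at P0 and 29.9% (23.5 to 37.3) and 25.6% (20.5 to 31.5) at P21. Both bins were higher at P21 in ISCs, whereas in differentiated cells 1 was higher and the other had 22.2% and 21.0%, and the bin mean differences were 24.9 and 8.42 points. Different bins of the pair were called in ISCs (7.14% to 45.7%, Fisher's exact test, adjusted p = 0.00317, on 56 and 35 calls, lost at equal depth) and in differentiated cells (9.95% to 28%, Fisher's exact test, adjusted p = 0.00147). Elsewhere in the gene, 1 bin of intron 1 fell in ISCs (60% to 31.8%) and another was lower in differentiated cells than in P0 ISCs (34.4% against 84.2%, on 32 and 38 calls, lost at equal depth). The upstream element had 81.6% in P0 ISCs and 76.1% in P0 differentiated cells, a called difference of -5.54 points (Fisher's exact test, adjusted p = 0.00791) that was lost at equal depth and under both stricter CGI definitions, with a bin mean difference of -4.73 points. The gene body was at 64.4% to 65.7% and the last exon at 88.3% to 92.2% in all libraries.

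**Figure D5:**
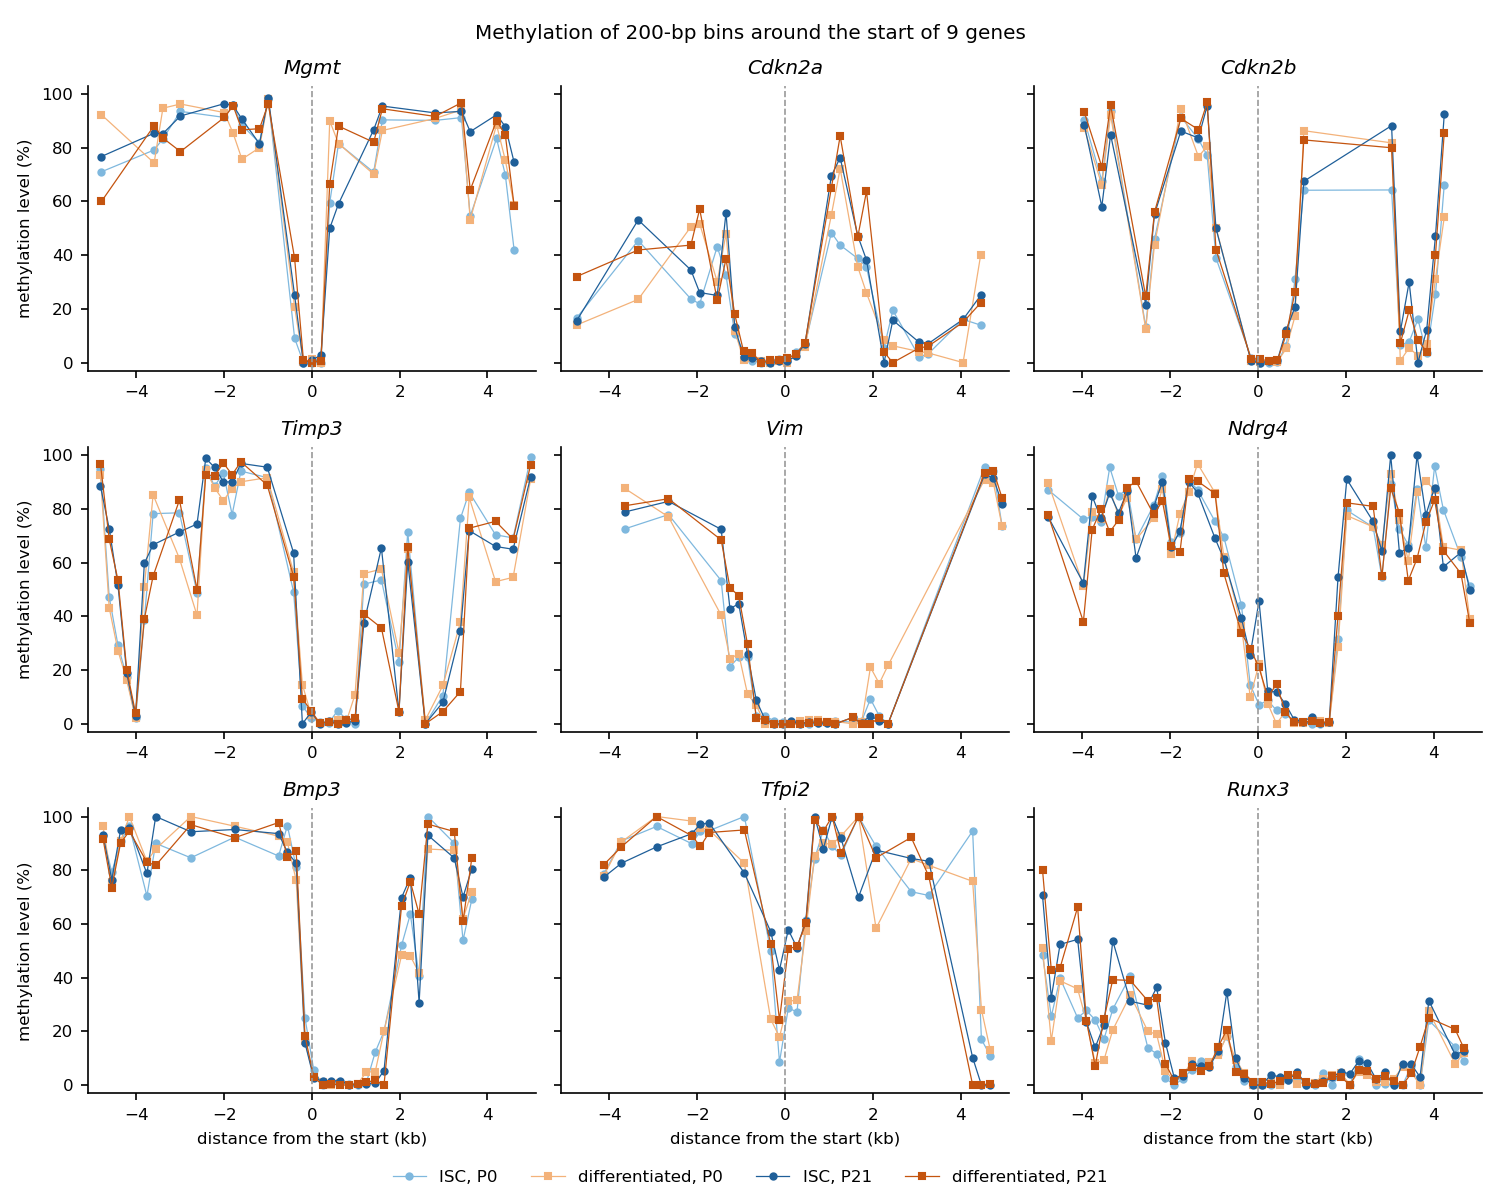
Methylation level (%) of the compared 200-bp bins within 5 kb of the start of each of the 9 genes in 4 libraries, with the dashed line at the start; the first start was used for Mgmt, Cdkn2a, Timp3 and Ndrg4 and the downstream start in the CGI for Runx3. Levels fall to nearly 0 in 8 of the panels, for Ndrg4 not at the first start itself but further downstream in its island. At Tfpi2 the dip is filled in further at P21.

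To set these loci beside others of their kind, the same values were taken for 38 further genes known for promoter CGI methylation in colorectal cancer, of which 37 had a promoter CGI. Their median level was 1.45% in P0 ISCs, 1.22% in P0 differentiated cells, 1.88% in P21 ISCs and 1.54% in P21 differentiated cells, and 32, 33, 31 and 32 of them were below 5%. With age 1 rose and 1 fell in ISCs, and 1 rose in differentiated cells. Between the populations none was called at P0 and 1 at P21. The backgrounds of 3.27%, 2.36%, 2.65% and 2.04% over all promoter CGIs stand beside these counts of 37, which are close to them. Gata5, a transcription factor of the gut endoderm, rose from 6.04% to 12.8% in ISCs (Fisher's exact test, adjusted p = 1.79e-12) and from 5.94% to 11% in differentiated cells (Fisher's exact test, adjusted p = 3.28e-18). The other call was Spg20, whose promoter CGI was intermediate in all libraries, with 42.6% in P0 ISCs, 37.9% in P0 differentiated cells, 37.2% in P21 ISCs and 42.6% in P21 differentiated cells. Over its calls it fell in ISCs by 5.34 points (Fisher's exact test, adjusted p = 0.00402) and at P21 was 5.35 points higher in differentiated cells (Fisher's exact test, adjusted p = 0.000860). Its bin mean differences were 0.454 points with age in ISCs, of opposite sign to the fall, and 0.499 points between the populations. Those of Gata5 were 9.21 points in ISCs and 6.27 points in differentiated cells.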

How the data were processed

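Whole-genome bisulfite sequencing libraries of 4 sorted cell samples, 1 per group, were used, and groups were taken from the labels. Per the methods and labels, adaptor-ligated DNA was treated with bisulfite, copied by PCR and read from both ends, and the authors mapped the reads to mm9 with Bismark and Bowtie. The versions of both, like the handling of duplicate reads, were not given in the sources used here. Each deposited file holds, per cytosine of a CpG, the count of all calls and the count of methylated calls made by the authors. The fraction deposited beside them is the ratio of these counts and was not used.

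Positions at no CpG of the mm9 sequence were left out (0.469% to 0.860% per library), strands were summed, and calls were summed over 200-bp bins. Autosomal bins of 2 or more CpGs with 10 or more calls in each of the 4 libraries were compared by a two-sided Fisher's exact test with Benjamini-Hochberg adjustment over all bins, and gene elements likewise. Differences between age effects were tested on log odds with a Wald chi-square test. Scripts used Python 3.11.15, numpy 2.4.6, scipy 1.17.1, numba 0.67.0, pandas 2.3.3 and matplotlib 3.10.9 and were tested on simulated data. Starts within 1000 bp of each other were merged, and a bin was assigned to a CGI that covered 100 bp or more of it. Named were the 9 genes, their starts and a part of their called bins, and of the further list only genes with a called promoter CGI. The called bins that are named were picked after their values were seen. Stretches and sequences shown were picked after their values were seen. The members and lists were chosen with earlier results of these data known. Alternatives changed the minimum of calls and CpGs, the difference, the bin borders, the CGI definition, the depth and, added after the values were seen, the weight of bins within elements.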

Additional observations from a re-analysis of the deposited data

Results flagged for a closer look

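In 1 bin and 6 gene elements, the age effect differed between ISCs and differentiated cells by the two-sided Wald chi-square test on log odds, which 0.150% of all bins and 6.74% of all gene elements passed. From P0 to P21, the Tfpi2 bin upstream of the start differed by 34.3 points in ISCs and 6.41 points in differentiated cells. The promoter CGI of Cdkn2a differed by -0.301 points in ISCs and 1.29 points in differentiated cells, and its gene body by -3.87 and 3.12 points. The other CGIs of Runx3 differed by 5.27 and 1.01 points. The gene body of Bmp3 differed by 4.15 and -0.157 points, and that of Tfpi2 by 1.15 and 10.4 points. The shores of Timp3 differed by 2.25 points in ISCs and -6.88 points in differentiated cells. Adjusted p of the Wald chi-square test lay between 0.000808 (Cdkn2a gene body) and 0.0485 (Timp3 shores) for the elements. Between bin means, without a test, the age differences in ISCs and differentiated cells were 0.841 and 1.39 points for the promoter CGI and 5 and 1.45 points for the gene body of Cdkn2a, 6.82 and 2.59 points for Runx3, 2.41 and 0.984 points for Bmp3, -2.85 and -1.59 points for the gene body of Tfpi2, and 0.251 and -3.96 points for Timp3.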

How the results depend on the processing

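No paired analysis was possible because each group is 1 library and the labels carry no replicate numbers, and no library could be left out. In the order ISCs with age, differentiated cells with age, between the populations at P0 and at P21, the main counts were 43, 42, 7 and 5 bins and 9, 12, 4 and 7 elements. A minimum of 4 CpGs, which left 648 bins, gave 27 and 23 bins with age; a limit of 30 points gave 16, 11, 3 and 0; a limit of 15 points with no test gave 172, 148, 130 and 105; thinning all libraries to the lowest depth gave 26, 17, 3 and 2; and bins shifted by 100 bp gave 12 at P0. Without a minimum difference 17, 19 and 9 elements were called in the first 3 comparisons, and with 10 points 4, 4, 0 and 1. The pooled promoter CGI level (ISC P0, differentiated P0, ISC P21, differentiated P21) was 1.66%, 1.31%, 2.13% and 1.56% with CGIs of 35 CpGs per 500 bp, 1.86%, 1.44%, 2.28% and 1.78% with CGIs defined by sequence, both of which leave 7 of the genes, and 3.24%, 3.31%, 4.47% and 4.39% as a mean of bin levels. With only CpGs of at least 10 calls it moved at P0, to 3.05% and 2.38%. A minimum of 20 or 40 calls and leaving out bins over 1000 calls kept all counts within 1.5 times. No called bin of the 9 genes, named in the text or not, changed sign where it was compared again. This held for 93 of the 97 bin calls at a minimum of 20 calls, 77 at 40 calls and 56 at 4 CpGs. Single called bins were not followed with shifted borders. No called element changed sign, where it was compared again, under the other CGI definitions, thinning or leaving out bins over 1000 calls. Thinning ended 50 of 97 bin calls and 3 of 32 element calls. Each of the other CGI definitions ended 3 element calls, and 25 (35 CpGs per 500 bp) and 26 (by sequence) were kept. The remaining calls could not be compared there, as the promoter CGI of Mgmt, for example, was not found under either definition. Of the calls that were compared, 6 were lost under thinning or at least 1 of these definitions. The calls without an element to compare come on top of these. The lowest library of a bin had a median of 46.5 calls where thinning ended the call and of 87 where it did not. As a difference of bin means, an alternative chosen after seeing the data and without a test, 5 of the 32 element calls turned sign: the gene body of Cdkn2a at P0 (4.73 points), the last exon of Runx3 at P0 and P21 (2.26 and 2.38), the gene body of Tfpi2 with age in differentiated cells (-1.59) and its upstream element at P21 (0.279), and 16 more fell to 5 points or less.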
